A study of Homo sapiens with 8 samples.

Results

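The mRNAs described here encode the machinery of the lysosome: 16 subunits and accessory proteins of its proton pump, 23 hydrolases and hydrolase activators of its lumen, and 5 proteins of its membrane. The 44 members were taken by gene symbol from the 61806 genes of the deposited table, and each had at least 10 counts in at least 4 libraries, so that all 44 were among the 14893 genes tested. The member nearest to that limit was CTSH, with 38 to 52 counts per library. Human N/TERT cells, immortalized keratinocytes, were treated with ethanol, the solvent control, or with O/A, the combination of oligomycin and antimycin A. The data of each group came from 4 independent experiments. Oligomycin was given at 10 µM, antimycin A at 4 µM, and both for 4 hours. Both groups are of 1 immortalized cell line, and the lysosome was measured as mRNA only.

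Oligomycin blocks the mitochondrial ATP synthase and antimycin A blocks complex III of the respiratory chain, and together they depolarize mitochondria and start mitophagy, in which damaged mitochondria are digested in lysosomes. The vacuolar H+-ATPase (V-ATPase) acidifies the lysosome. Its V1 sector, on the cytosolic side, hydrolyses ATP, and its V0 sector, in the membrane, carries the protons inward. Hydrolases with an acidic optimum then break down proteins, glycans and lipids, and heavily glycosylated membrane proteins line the organelle. Many of these genes share a promoter element, the CLEAR element, whose core is the E-box read by the transcription factors TFEB, TFE3 and MITF.

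Between 17210404 and 20999927 reads were counted per ethanol library and between 17689760 and 19263046 per O/A library. All 10 keratinocyte markers were tested, and their summed level was 4841 to 5129 FPKM (fragments counted per length of exon and per size of the library) in ethanol and 4499 to 4662 in O/A, with KRT5 (log2 fold change -0.30) and SFN (-0.28) lower. Among 8 differentiation markers, 4 were tested, KRT10 rose (0.47) and IVL fell (-0.31), and KRT1 and LORICRIN were at 0 in every library. The summed level did not exceed 2.95 FPKM for 7 fibroblast markers, 0.66 for 6 melanocyte markers, of which MLANA and TYR were at 0, or 0.42 for 5 immune cell markers. The 10 keratinocyte markers did not move together, since 5 had a log2 fold change above 0 and 5 below, with a median of 0.007. Their changes run beside every value below, and the part of these changes in the values was not tested. In bulk RNA a change in the cells present and a change in the RNA per cell cannot be told apart.

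O/A changed the lysosomal mRNAs by small amounts and mostly upward. The quasi-likelihood test of edgeR was used, and a gene was called changed when its adjusted p was at most 0.05 and its absolute log2 fold change, O/A over ethanol, was above 0.25. By that rule 5 of the 44 members (11.4%) were called, against 34.7% of all genes tested. Of these, 4 were higher (9.09%, against 15.8% of all genes) and 1 was lower (2.27%, against 18.9%). The 4 that rose were NEU1, ATP6V1B2, TPP1 and HEXA, and the 1 that fell was NAGLU.

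The fold threshold left out most of the differences that passed the test. By the adjusted p alone, 29 members passed (65.9%), against 53.7% of all genes, and among genes with a mean level of at least 5 FPKM, where counts are higher, 25 of 34 members (73.5%) and 65.3% of all genes passed. Thus 24 members passed the test with a change inside the fold threshold, 21 of them higher and 3 lower in O/A. The libraries of both groups did not overlap, on the scale of CPM (counts per library size) after TMM scaling, for 25 members (56.8%), 22 higher and 3 lower, against 47.6% of all genes. Among all genes with a mean level of at least 5 FPKM the share was 59.5%, so the members showed no excess over genes of that level. The log2 fold change was above 0 for 32 members and below 0 for 12, with a median of 0.115, where the median over all genes tested was 0.00. The split differed between methods. Of the members that passed by adjusted p, 25 were higher and 4 lower in edgeR, with TMM and also with median-ratio scaling. When limma was run on log2(FPKM + 0.1), 17 were higher and 7 lower, and the median of all genes was -0.043. That setting changes both the test and the scale, so their parts cannot be told apart.

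**Figure D1:**
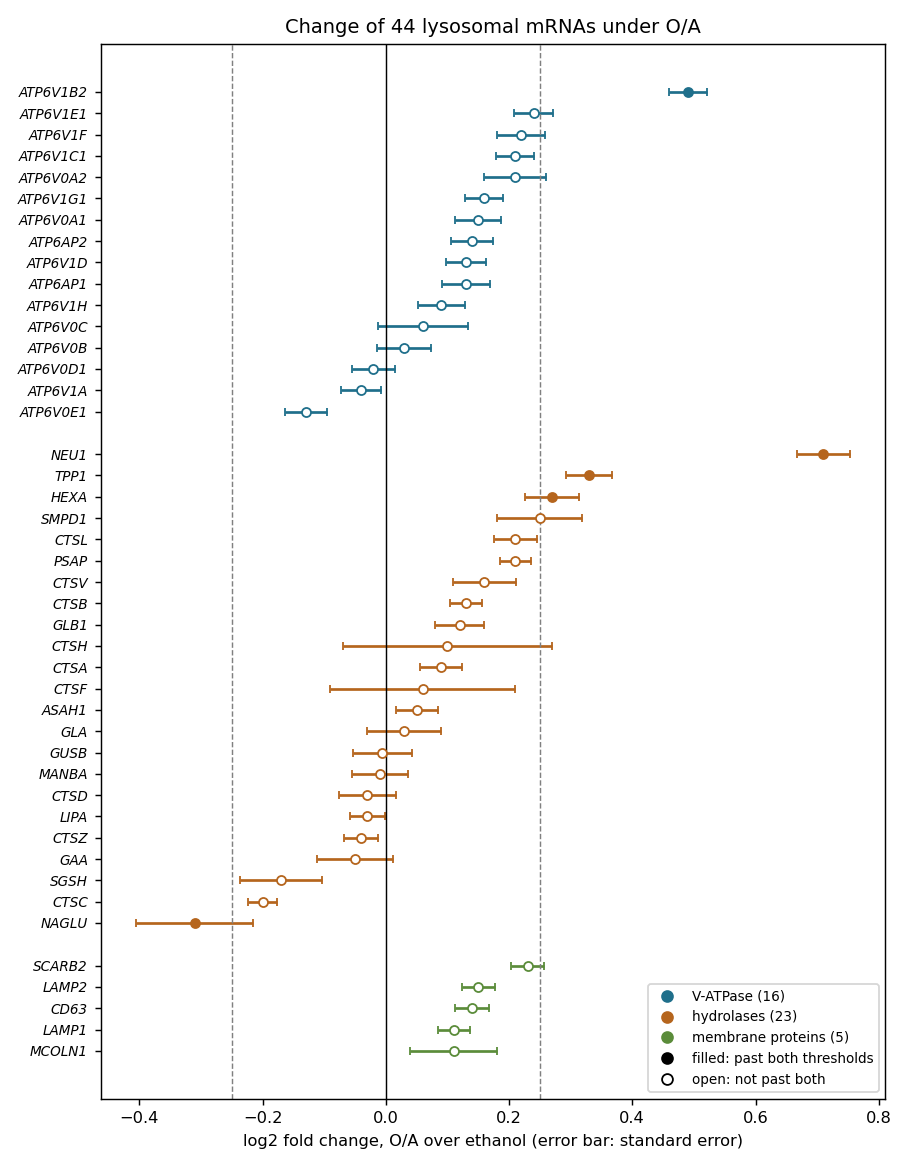
Log2 fold change of each of the 44 members, O/A over ethanol, with its standard error (edgeR, 4 libraries per group), ordered within the 3 classes. Filled points passed both thresholds and dashed lines mark a log2 fold change of 0.25 in either direction; 32 members lie right of 0, and most of them lie between 0 and 0.25.

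Summed over all 44 members the level was 1079 to 1139 FPKM in ethanol and 1156 to 1204 in O/A, and the groups did not overlap. The means were 1109 ± 25.4 and 1179 ± 19.8 (SD, n = 4), a ratio of 1.06. The V-ATPase genes went from 395.8 ± 8.5 to 417.2 ± 9.92 FPKM (ratio 1.05), the hydrolases from 498.0 ± 12.6 to 532.2 ± 8.82 (1.07) and the membrane proteins from 215.2 ± 4.84 to 229.6 ± 3.09 (1.07). These sums lean on a few abundant mRNAs, since PSAP alone made up 230 FPKM of the hydrolase sum in ethanol and CD63 made up 111 FPKM of the membrane protein sum.

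Within the proton pump the mRNAs of the cytosolic V1 sector were higher in O/A with 1 exception. Of its 8 subunits, 7 passed by adjusted p (87.5%, against 53.7% of all genes), all higher in O/A. All 8 lay above 5 FPKM, and of all genes with a mean of at least 5 FPKM 65.3% passed. The median log2 fold change over the 8 was 0.18. Only 1 subunit, ATP6V1B2, passed the fold threshold too (12.5%, against 34.7% of all genes). Of the 6 membrane V0 subunits, 3 passed by adjusted p, 2 higher and 1 lower, with a median of 0.045 and none past the fold threshold. The summed level of the V1 subunits was 244.0 to 257.6 FPKM in ethanol and 271.3 to 288.3 in O/A, while that of the V0 subunits was 115.8 to 120.9 in ethanol and 107.1 to 114.2 in O/A. Neither pair of ranges overlapped, and they moved in opposite directions. The V0 sum was mostly ATP6V0E1, at 70.9 FPKM of a mean of 118.4 in ethanol, and whether the sectors differed was not tested.

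ATP6V1B2 encodes the B subunit, which forms the ring of catalytic heads together with the A subunit. Its level was 13.81, 13.68, 13.81 and 13.24 FPKM in ethanol and 18.57, 18.46, 19.01 and 18.28 in O/A. Every O/A library lay above every ethanol library, and the replicates within a group lay close together. The log2 fold change was 0.49 (standard error 0.031, adjusted p = 1.84e-19), the largest of the 16 pump genes. ATP6V1B2 (ENSG00000147416) lies on chromosome 8 from 20197381 to 20226819 of GRCh38, on the plus strand.

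ATP6V1A encodes the catalytic A subunit, which stands beside the B subunit in equal number in the ring. Its level was 20.71, 19.74, 21.25 and 20.08 FPKM in ethanol and 19.35, 19.57, 19.24 and 18.97 in O/A. These FPKM ranges did not overlap, the O/A libraries being lower, but the TMM-scaled values did overlap, and the log2 fold change was -0.04 (standard error 0.033, adjusted p = 0.342). No scaling between libraries can alter a ratio within 1 library, so the ratio of the partner mRNAs was compared as well. The FPKM ratio of ATP6V1A to ATP6V1B2 lay between 1.44 and 1.54 over the ethanol libraries and was 1.04, 1.06, 1.01 and 1.04 in O/A. On this scale the mRNA of the A subunit stood above that of the B subunit in ethanol and close to it in O/A. The mean log2 ratio was lower by 0.53 in O/A. The exact two-sided permutation test gave p = 0.0286, the smallest that 4 libraries against 4 allow. After adjustment over the 6 ratios compared, the permutation p was 0.0572 and did not pass 0.05. A ratio at the smallest p can pass after adjustment only if most of the 6 reach it too. The adjusted value therefore cannot decide whether this ratio changed.

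The other V1 mRNAs were higher in O/A by amounts inside the fold threshold. ATP6V1E1, a subunit of the peripheral stalk, came closest, with 39.57, 40.39, 42.54 and 38.8 FPKM in ethanol and 46.53, 46.59, 47.07 and 43.76 in O/A. Its groups did not overlap, and its log2 fold change was 0.24 (standard error 0.032, adjusted p = 1.01e-08). ATP6V1F was the most abundant pump mRNA in both groups, at 89.0 ± 3.48 FPKM in ethanol and 100 ± 4.75 in O/A (log2 fold change 0.22). ATP6V1C1, whose subunit helps to hold V1 to V0, followed with 0.21, then the stalk subunits ATP6V1G1 with 0.16 and ATP6V1D with 0.13. The smallest change that passed was that of ATP6V1H, a regulatory subunit of the cytosolic sector, with 0.09 (adjusted p = 0.0483). ATP6V1D shares its locus with PALS1 on the opposite strand, which held 80.5% as many reads, and whether the reads were counted by strand is not given in the sources used here, so some of them may belong to either gene.

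Among the V0 mRNAs, those of the large a subunits, which form the path of the protons and steer the pump to its membrane, were higher. ATP6V0A1 had a log2 fold change of 0.15 (standard error 0.037, adjusted p = 7.33e-04) and ATP6V0A2 one of 0.21 (0.05, 2.90e-04), the latter at only 1.79 FPKM in ethanol and 2.00 in O/A. The small membrane subunit ATP6V0E1 went the other way. Its level was 68.82, 73.03, 73.63 and 68.01 FPKM in ethanol and 65.88, 63.69, 59.95 and 61.71 in O/A, with no overlap, and its log2 fold change was -0.13 (standard error 0.034, adjusted p = 0.00137). For ATP6V0B and ATP6V0C, the subunits of the rotating proteolipid ring, and ATP6V0D1, which couples the ring to the central stalk, the log2 fold changes were 0.03, 0.06 and -0.02, none past an adjusted p of 0.05. ATP6V0C was the least reproducible of them, from 10.37 to 13.22 FPKM among the ethanol libraries. The accessory proteins ATP6AP1 and ATP6AP2, the latter also known as the prorenin receptor, had log2 fold changes of 0.13 and 0.14 and passed by adjusted p.

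**Figure D2:**
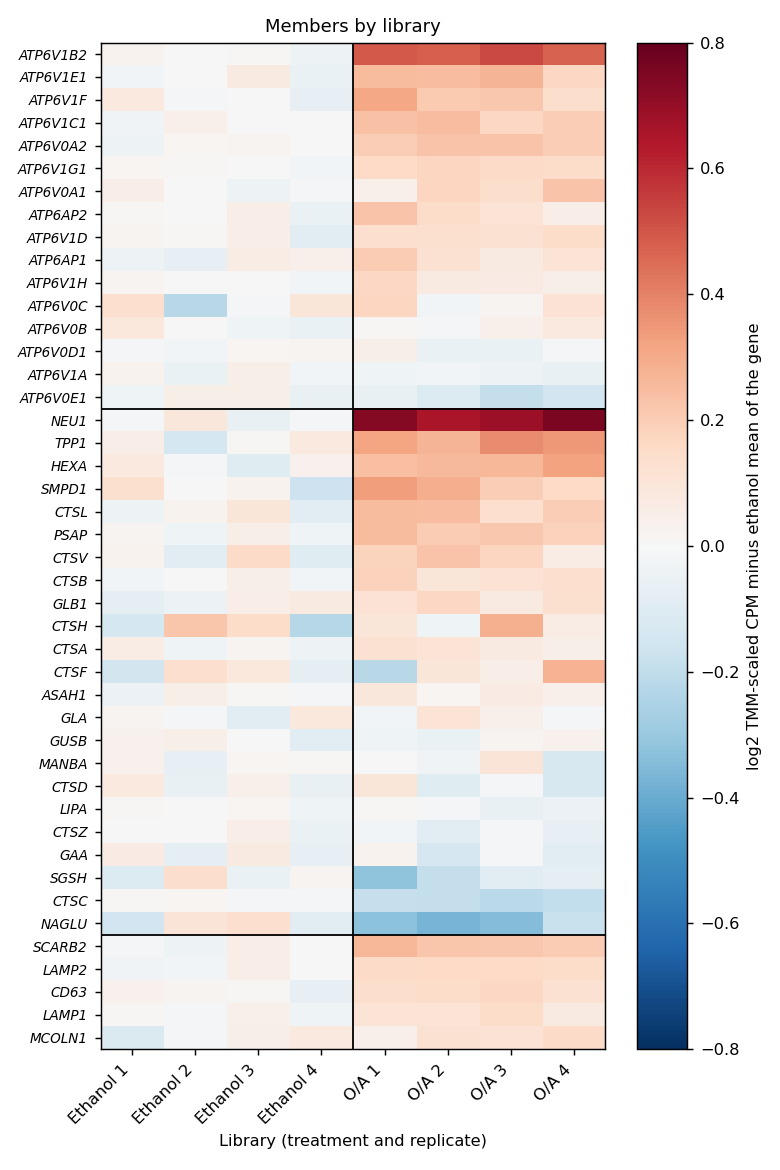
Each member in each library as log2 TMM-scaled CPM minus the ethanol mean of that gene; red is above and blue below the ethanol mean. The 4 O/A columns are red for most V-ATPase and membrane protein rows and nearly white for ATP6V1A, ATP6V0D1 and GUSB, and only NEU1 and ATP6V1B2 are dark.

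The largest change among the hydrolases, and among all members, was that of NEU1, the lysosomal sialidase, which removes sialic acid from glycoproteins and glycolipids. Its level was 8.39, 9.05, 8.22 and 8.4 FPKM in ethanol and 13.73, 13.03, 13.23 and 13.88 in O/A. The groups were far apart, with no O/A library under 13.03. The log2 fold change was 0.71 (standard error 0.043, adjusted p = 5.99e-20), a 1.63-fold rise. CTSA, the serine carboxypeptidase with which the sialidase forms a complex and on which its stability depends, had a log2 fold change of 0.09 (standard error 0.034, adjusted p = 0.0239), with 11.38 to 12.15 FPKM in ethanol and 11.74 to 12.38 in O/A, ranges that overlapped. CTSA shares its locus with PLTP on the opposite strand, which held 39.1% as many reads.

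TPP1, a peptidase that takes tripeptides from the ends of proteins, also rose. Its level was 17.26, 15.17, 16.91 and 17.63 FPKM in ethanol and 20.18, 19.62, 21.03 and 20.62 in O/A, and the groups did not overlap. The log2 fold change was 0.33 (standard error 0.037, adjusted p = 1.90e-09). HEXA, the alpha subunit of the hexosaminidase that degrades GM2 ganglioside, was lower in level and rose less, from 3.06, 2.89, 2.74 and 2.97 FPKM in ethanol to 3.34, 3.38, 3.39 and 3.52 in O/A (log2 fold change 0.27, standard error 0.044, adjusted p = 6.11e-07). The call of HEXA was lost with limma on log2(FPKM + 0.1), which gave 0.22, and without ethanol replicate 3 (0.24).

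NAGLU, which removes N-acetylglucosamine from heparan sulfate, was the member that fell. Its level was 3.02, 3.63, 3.72 and 3.16 FPKM in ethanol and 2.6, 2.54, 2.56 and 2.88 in O/A. The ranges were close but did not overlap, and the log2 fold change was -0.31 (standard error 0.095, adjusted p = 0.0054), the least precise of the 5 calls. It rested on 163 or more counts per ethanol library, and limma after quantile normalization gave -0.21. SGSH, the sulfamidase that acts in the same breakdown of heparan sulfate, was lower as well, with a log2 fold change of -0.17 (standard error 0.066, adjusted p = 0.0266). Its level was 3.16 to 3.78 FPKM in ethanol and 2.65 to 3.15 in O/A. Those FPKM ranges did not overlap, but the TMM-scaled values did, at 20.85 to 24.79 CPM in ethanol and 17.95 to 21.38 in O/A. SGSH shares its locus with SLC26A11 on the opposite strand, a gene with fewer reads.

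**Figure D3:**
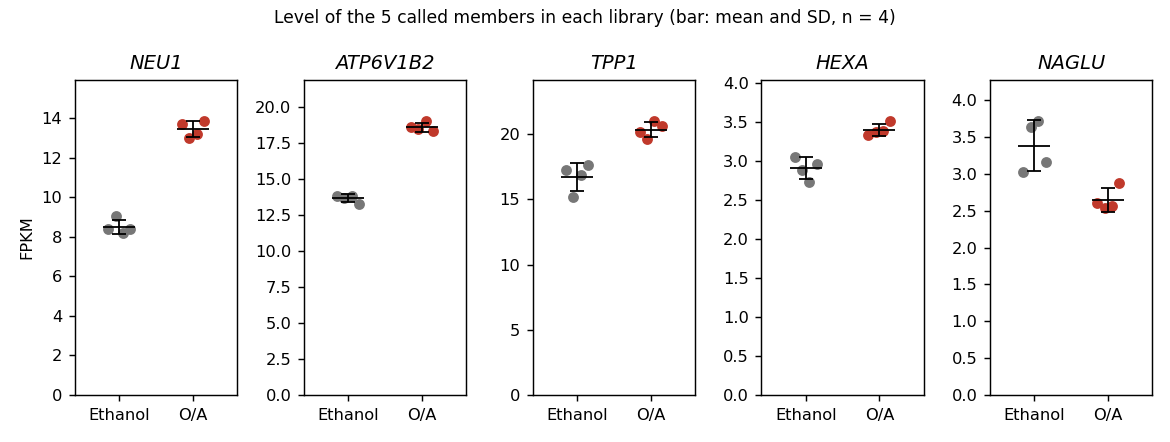
FPKM in each of the 4 ethanol (grey) and 4 O/A (red) libraries for the 5 members past both thresholds; bars are the mean and SD, and each axis starts at 0. The groups are separate in every panel, most widely for NEU1 (8.22 to 9.05 against 13.03 to 13.88 FPKM) and least for NAGLU (3.02 to 3.72 against 2.54 to 2.88).

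The remaining sugar-cleaving enzymes moved little. GLB1, the beta-galactosidase, had a log2 fold change of 0.12 (adjusted p = 0.0102). The values were 0.03 for the alpha-galactosidase GLA, -0.05 for the acid alpha-glucosidase GAA, which breaks down glycogen, and -0.0092 for the beta-mannosidase MANBA, none past an adjusted p of 0.05. The beta-glucuronidase GUSB, often used as a reference gene, had -0.0055 (standard error 0.048, adjusted p = 0.937), at 9.92 ± 0.398 FPKM in ethanol and 9.56 ± 0.266 in O/A. The value of GLA is uncertain, because RPL36A on the opposite strand held 378% as many reads, and reads of GUSB can be shared with its pseudogene copies, of which GUSBP1 held 23.1% as many.

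No cathepsin was called, against 34.7% of all genes tested. By adjusted p alone 5 of the 9 passed (55.6%, near the 53.7% of all genes), 4 higher and 1 lower. CTSC, the dipeptidyl peptidase that activates serine proteases by trimming their ends, was the cathepsin that was lower. Its level was 28.16, 28.39, 28.03 and 27.77 FPKM in ethanol and 23.89, 23.95, 23.36 and 23.75 in O/A. The replicates were tight and the groups well apart, although the log2 fold change was only -0.20 (standard error 0.024, adjusted p = 9.38e-10). With limma after quantile normalization it was -0.33, past the fold threshold. CTSL, a broad cysteine endopeptidase, had 0.21 (standard error 0.035, adjusted p = 2.56e-06), its close relative CTSV, which is found in epidermis, 0.16, and CTSB, a cysteine protease, 0.13 (standard error 0.026, adjusted p = 2.64e-05). CTSD, the aspartic protease, had -0.03, and CTSZ, a carboxypeptidase, -0.04, with 44.9% as many reads on NELFCD, which lies on the opposite strand. CTSF and CTSH were near the bottom of what could be measured, at 0.77 and 0.168 FPKM in ethanol, and their standard errors of 0.15 and 0.17 allow no reading of their values of 0.06 and 0.10. The summed level of the 9 cathepsins was 138.1 ± 4.34 FPKM in ethanol and 137.4 ± 3.23 in O/A.

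The balance between cathepsin mRNAs was compared within libraries. The FPKM ratio of CTSB to CTSD was 1.26, 1.40, 1.35 and 1.39 in ethanol and 1.43, 1.54, 1.47 and 1.62 in O/A, with no overlap (difference in mean log2 ratio 0.167, exact two-sided permutation test, p = 0.0286, adjusted 0.0572). The ratio of CTSL to CTSV was 1.52 to 1.73 in ethanol and 1.56 to 1.75 in O/A, and these ranges overlapped (difference 0.049, exact p = 0.4). Of the 4 other ratios, that of ATP6V1H to ATP6V1C1 was 0.643 to 0.687 in ethanol and 0.586 to 0.631 in O/A (difference -0.123, exact p = 0.0286, adjusted 0.0572). The ratios of LAMP1 to LAMP2 (difference -0.042, exact p = 0.0857) and of ATP6V0A1 to ATP6V0A2 (-0.064, exact p = 0.286) had overlapping ranges. None of the 6 ratios passed 0.05 after adjustment. With 0.0286 the smallest p that this permutation test allows, none could pass unless most of the 6 reached it. No conclusion is drawn from that outcome for the ratios whose groups did not overlap.

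**Figure D4:**
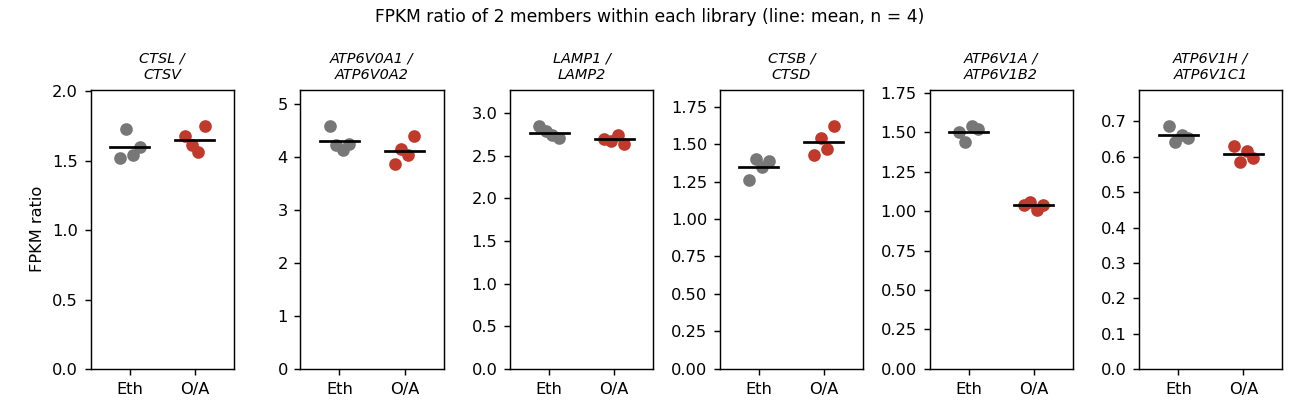
FPKM ratio of 2 members within each library, for the 6 pairs compared; points are libraries, lines are group means and each axis starts at 0. The ATP6V1A to ATP6V1B2 ratio is 1.44 to 1.54 in ethanol and 1.01 to 1.06 in O/A, and the CTSL to CTSV, ATP6V0A1 to ATP6V0A2 and LAMP1 to LAMP2 ranges overlap.

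PSAP, the precursor of the saposins that present sphingolipids to their hydrolases, was the most abundant member. Its level was 232.63, 224.91, 239.69 and 224.38 FPKM in ethanol and 265.37, 257.55, 259.01 and 253.13 in O/A. The groups did not overlap, and the log2 fold change was 0.21 (standard error 0.025, adjusted p = 4.10e-10), so that the difference in mean level, though inside the fold threshold, was the largest of any member in FPKM. SMPD1, the acid sphingomyelinase, lay at the threshold, with a log2 fold change of 0.25 that did not exceed it before rounding (standard error 0.069, adjusted p = 0.00217) and levels of 6.75, 6.23, 6.36 and 5.52 FPKM in ethanol and 7.57, 7.37, 6.86 and 6.71 in O/A. The acid ceramidase ASAH1 had 0.05 and the acid lipase LIPA, which cleaves cholesteryl esters and triglycerides, -0.03, at 44.7 ± 0.788 and 42.5 ± 0.978 FPKM, neither past an adjusted p of 0.05. LIPA shares its locus with IFIT1 and IFIT3 on the opposite strand, which held 14.9% and 15.8% as many reads.

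All 5 membrane proteins had log2 fold changes above 0, of 0.11 to 0.23, and none passed the fold threshold. For LAMP1, limma after quantile normalization gave -0.0049 in place of 0.11. SCARB2, the sorting receptor that carries glucocerebrosidase to the lysosome, had the largest, with 13.23, 12.97, 13.97 and 13.31 FPKM in ethanol and 15.56, 15.19, 15.02 and 14.89 in O/A (log2 fold change 0.23, standard error 0.027, adjusted p = 3.93e-10). Its groups did not overlap. LAMP1 and LAMP2, the main glycoproteins of the lysosomal membrane, went from 63.5 ± 1.56 to 66.4 ± 1.39 FPKM (0.11) and from 22.9 ± 0.707 to 24.7 ± 0.14 (0.15), and the tetraspanin CD63 from 111 ± 3.36 to 119 ± 1.59 (0.14). These 3 and SCARB2 passed by adjusted p (80.0% of the 5, against 53.7% of all genes and 65.3% of those with a mean of at least 5 FPKM). MCOLN1, the calcium release channel of the lysosome, had 0.11 (standard error 0.07, adjusted p = 0.21), and its value is uncertain because PNPLA6, on the same strand and overlapping it, held 346% as many reads.

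Promoter windows were available for 31 of the 44 members, and 4 are shown because their members differ in change and in the E-box letters they hold. Each window runs from 250 bases before the RefSeq start site to 50 bases from it on (GRCh38.p14), 5′ to 3′ on the strand of the gene, with every CACGTG in capitals. NEU1 (ENSG00000204386, gene at chromosome 6 from 31857659 to 31862905 in the authors' table) rose most and holds 1, which begins 126 bases before the start site. TPP1 (ENSG00000166340, chromosome 11 from 6612768 to 6619448) rose and holds none. LAMP1 holds 6 and changed by 0.11, and GAA holds 2, both within the longer core TCACGTGA, and had a log2 fold change of -0.05.
NEU1, chr6:31862772-31863071, minus strand: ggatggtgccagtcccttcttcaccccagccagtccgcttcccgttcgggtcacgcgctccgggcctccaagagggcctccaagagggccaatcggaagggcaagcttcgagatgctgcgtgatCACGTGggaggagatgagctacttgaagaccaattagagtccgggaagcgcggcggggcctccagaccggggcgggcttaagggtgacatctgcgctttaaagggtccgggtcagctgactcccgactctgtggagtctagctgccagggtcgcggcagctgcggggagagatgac
TPP1, chr11:6619373-6619672, minus strand: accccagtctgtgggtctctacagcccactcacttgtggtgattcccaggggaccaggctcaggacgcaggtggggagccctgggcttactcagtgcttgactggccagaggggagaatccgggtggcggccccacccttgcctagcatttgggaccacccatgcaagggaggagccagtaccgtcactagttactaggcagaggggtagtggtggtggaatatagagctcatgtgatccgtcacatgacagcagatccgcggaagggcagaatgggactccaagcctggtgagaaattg
LAMP1, chr13:113296989-113297288, plus strand: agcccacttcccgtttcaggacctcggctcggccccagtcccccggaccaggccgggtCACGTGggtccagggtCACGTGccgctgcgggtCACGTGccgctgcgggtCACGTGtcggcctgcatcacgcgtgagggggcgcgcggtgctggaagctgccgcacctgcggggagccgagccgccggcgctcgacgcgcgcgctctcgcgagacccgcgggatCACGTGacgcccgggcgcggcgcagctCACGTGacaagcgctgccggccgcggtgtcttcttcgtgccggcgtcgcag
GAA, chr17:80101331-80101630, plus strand: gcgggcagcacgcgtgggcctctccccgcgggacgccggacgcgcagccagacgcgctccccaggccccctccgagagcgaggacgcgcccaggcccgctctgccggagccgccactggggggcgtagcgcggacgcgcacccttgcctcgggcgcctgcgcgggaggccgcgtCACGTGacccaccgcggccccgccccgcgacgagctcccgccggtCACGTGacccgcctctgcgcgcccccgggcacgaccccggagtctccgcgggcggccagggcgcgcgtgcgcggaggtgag

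No window was matched for ASAH1, ATP6V0E1, ATP6V1A, ATP6V1B2, ATP6V1C1, ATP6V1H, CTSB, HEXA, LAMP2, MANBA, NAGLU, PSAP and SGSH. Across the members with a window, 11 of 31 (35.5%) held the E-box CACGTG, against 8.77% of the 27305 genes with a window in the RefSeq table. The longer core TCACGTGA, which contains the E-box, was held by 6 of 31 (19.4%), against 1.18% of all genes. TGATGNAA, the element read by ATF4 and CHOP in the integrated stress response, was searched on both strands and was found in 0 of 31, against 4.46% of all genes. The E-box is palindromic, so that both strands give the same matches. Among the members with a window, the E-box was held by 5 of the 19 that passed by adjusted p (26.3%) and by 6 of the 12 that did not, a lower share among those that passed, which was not tested. By class they were held by 3 of 11 V-ATPase genes, 5 of 16 hydrolase genes and 3 of 4 membrane protein genes. These are letter matches in a short window, and no binding was measured.

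Other genes of the same pathways were taken from lists written from general knowledge. Among 8 tested other subunit isoforms of the pump, RNASEK, a small protein associated with it whose locus also gives a readthrough transcript that can share its reads, rose from 3.55 to 4.42 mean FPKM (log2 fold change 0.36, adjusted p = 0.00313), and 1 other, ATP6AP1L, fell at a level under 1 FPKM. The a3 isoform TCIRG1, known from osteoclasts, was at 7.49 FPKM in ethanol and 6.92 in O/A (-0.07), and ATP6V1G3, of the kidney, was at 0 in every library. Another list held 10 tested genes of pump assembly, the RAVE complex, which rejoins V1 to V0, and proteins with a TLDc domain. In it 2 rose and 1 fell (30.0% called, against 34.7% of all genes). The 2 that rose, NCOA7 and OXR1, have a TLDc domain, and the 1 that fell, WDR7, belongs to the RAVE complex.

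The largest change near the pump was that of NCOA7, whose TLDc domain binds the V-ATPase. Its level was 5.08, 4.55, 4.72 and 4.88 FPKM in ethanol and 19.99, 19.95, 19.15 and 17.91 in O/A. The O/A libraries held several times the ethanol level, with a log2 fold change of 2.05 (standard error 0.04, adjusted p = 1.83e-39). Its TLDc relative OXR1 had 0.25, just past the fold threshold before rounding, with 5.48 and 6.31 mean FPKM. WDR7, a partner of the DMXL proteins in the RAVE complex, fell (-0.29, adjusted p = 5.36e-05).

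Among 38 tested other hydrolases and activators, 3 rose and 2 fell (13.2% called), with a median of 0.043. DNASE2, the acid DNase, rose from 7.09 to 9.16 mean FPKM (log2 fold change 0.42) and SMPDL3A, a phosphodiesterase related to SMPD1, from 2.08 to 2.67 (0.40). The falls were those of the hyaluronidase HYAL2, from 4.59 to 2.90 (-0.62), and the phospholipase PLA2G15, from 3.18 to 2.04 (-0.59). Of the hydrolases in the member list 4 of 23 (17.4%) were called, and of all genes tested 34.7%.

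Of 30 other lysosomal membrane proteins and transporters, 9 rose and 2 fell (36.7% called, near the 34.7% of all genes), with a median of 0.095. NPC1, which exports cholesterol from the lysosome, went from 14.03, 14.62, 14.53 and 14.35 FPKM in ethanol to 27.55, 27.0, 27.25 and 26.82 in O/A (log2 fold change 0.96, standard error 0.028, adjusted p = 1.71e-33). Rises were also seen for the cystine exporter CTNS (0.55), OSTM1, the partner of the chloride transporter CLCN7 (0.55), the cation channel TPCN1 (0.47) and the cationic amino acid exporter SLC66A1 (0.43), and TMEM165, a membrane protein of the Golgi and lysosome, fell (-0.41). The difference from the 5 member membrane proteins, none of which was called, was not tested.

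Hydrolases reach the lysosome through a mannose 6-phosphate tag. Of 12 genes of tagging and sorting, 3 rose and 1 fell (33.3% called, near the 34.7% of all genes). IGF2R, the large mannose 6-phosphate receptor, rose from 11.96, 11.44, 10.69 and 13.17 FPKM in ethanol to 15.42, 17.05, 17.28 and 17.34 in O/A (log2 fold change 0.55, standard error 0.074, adjusted p = 6.66e-04). CLN8, which escorts enzymes out of the endoplasmic reticulum, rose by 0.47 and the sorting receptor SORL1 by 0.26, and NAGPA, which uncovers the tag, fell (-0.26).

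CSTA, a cysteine protease inhibitor of the epidermis, was the 1 of 7 tested cathepsin inhibitors that was called (14.3%, against 34.7% of all genes). It stood at 60.7, 61.82, 63.93 and 62.85 FPKM in ethanol and 114.72, 119.84, 112.07 and 104.65 in O/A (log2 fold change 0.90, standard error 0.034, adjusted p = 6.16e-28). The inhibitors CSTB (-0.04) and CST3 (0.02) did not pass by adjusted p. Of the 3 tested transcription factors that read the E-box of the CLEAR element, TFE3 rose from 16.69 to 17.14 FPKM in ethanol to 22.22 to 23.49 in O/A (0.47, adjusted p = 1.85e-16). MITF, at 1.14 and 1.00, and TFEB, at 0.46 and 0.348, had -0.15 and -0.37 and did not pass. Whether these factors bind the promoters of the members in these cells was not tested.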

How the data were processed

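Ethanol and O/A were compared in N/TERT cells by mRNA sequencing, with 4 independent experiments each and 8 libraries in all. The authors enriched poly(A) RNA, used HISAT2 2.0.1 on GRCh38.p13 and HTSeq 0.6.1 on Ensembl genes, and deposited raw counts that are not normalized. The Ensembl release and the strand option are not given in the sources used here. The authors derived the deposited FPKM from the counts, and each value was within 0.005 of the count over exonic length and library total. FPKM follows the library total and the fold changes follow TMM, so these can differ slightly. A deposited table with the authors' DESeq2 fold changes and p-values was not used.

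Differences were tested with edgeR 4.0.16 (R 4.3.3, TMM, robust quasi-likelihood test, Benjamini-Hochberg over 14893 genes), and each adjusted p in the text is of this test unless a permutation test is named. The total of 17210404 to 20999927 counts per library leaves members with few reads imprecise. All 44 members are named. From each other lysosomal list the genes past both thresholds with at least 1 FPKM in a condition are named, at most 6 by size of change. ATP6AP1L, TCIRG1, ATP6V1G3, ATP6V0A4, CSTB, CST3, MITF and TFEB were named after their values were seen. Members and lists were chosen with earlier results of these data known.

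The result was recomputed with DESeq2 1.42.0, with limma 3.58.1 on FPKM at a pseudocount of 0.1 or 1, under other filters, scalings and fold thresholds, with a replicate block, and without each library. Quantile normalization was run with limma on log2 CPM, so it changes both the test and the scale, and their parts cannot be told apart. Promoter windows come from RefSeq (GRCh38.p14), matched by symbol.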

Additional observations from a re-analysis of the deposited data

How the results depend on the processing

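NEU1, ATP6V1B2 and TPP1, 3 of the 5 called members, kept their call in every alternative that kept the fold threshold. HEXA lost it with limma on FPKM (0.22 and 0.17) and without ethanol replicate 3 (0.24), and NAGLU under quantile normalization (-0.21). SMPD1 gained it in 7 alternatives, CTSC under quantile normalization (-0.33), and ATP6V1E1 without ethanol replicate 3 or O/A replicate 4 (0.26 in each), which took the V-ATPase count from 1 to 2, the range over left-out libraries being 1 to 2. A mean FPKM of at least 5, which removes HEXA and NAGLU, gave 3 members and 2 hydrolases. No fold threshold gave 29 members, 12 V-ATPase genes, 13 hydrolases and 4 membrane proteins, and an absolute log2 fold change above 1 gave 0 in each class. The V0 subunits, cathepsins and membrane proteins, with 0 past both thresholds in edgeR, also had 0 in DESeq2 and in limma at a pseudocount of 0.1, and 3, 5 and 4 of them had an unadjusted edgeR p under 0.05.

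The sign changed for 8 members. With limma on FPKM at a pseudocount of 0.1 and 1, ATP6V0B was at -0.02 in both and GLA at -0.02 and -0.01. GUSB was at 0.0014 in DESeq2, 0.0017 with median-ratio scaling and 0.0006 under quantile normalization, which also took LAMP1 to -0.0049. Over left-out libraries the ranges were -0.0042 to 0.11 for ATP6V0C, -0.04 to 0.0014 for ATP6V0D1, -0.01 to 0.14 for CTSF, -0.0013 to 0.06 for GLA, -0.03 to 0.02 for GUSB and -0.05 to 0.03 for MANBA. The causes were not tested. The ratio of ATP6V1A to ATP6V1B2 differed by -0.549 to -0.518 over left-out libraries, a setting added after seeing the data and given as values with no test.

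With the replicate block 5 members were called, and no call changed. Whether same-numbered libraries came from 1 experiment is not stated in the labels. The numbers were not taken as pairs, since same-numbered libraries had correlations of their deviations of -0.02808 to 0.07438. Differently numbered ones had -0.15 to 0.1048. Depth limits CTSH and CTSF, with the fewest counts.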
